A study of Danio rerio with 7 samples.

Results

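Endothelial cells were found among cells sorted from the first pharyngeal arch stream of zebrafish embryos, where the sort had aimed at neural crest (NC). Members were chosen by their UMI counts of 12 genes. A cell was counted when it held at least 1 UMI (unique molecular identifier, a tag that marks 1 captured RNA molecule) of 4 or more of the 9 genes cdh5, kdrl, tie1, etv2, egfl7, tal1, sox7, clec14a and she. It also had to hold no UMI of the 3 genes dlx2a, epcam and myl7, which mark arch NC, epithelium and heart muscle. By this rule 115 of 2845 cells were members. All embryos were of the AB strain and carried the transgene Tg(sox10:nEOS)w18, in which the sox10 promoter drives a nuclear protein that turns from green to red under violet light. The arch region was photoconverted in each embryo before dissociation, and red cells were sorted. One timeline table holds 6 libraries made with chemistry version 2, 1 for each age in h post-fertilization (hpf): 12 and 14, then 18, 20 and 24, and last 30, and a table of its own holds a second 18 hpf library made with version 3. No stage had a second library of the same chemistry, so stages are compared by counting intervals, and chemistry and library cannot be told apart at 18 hpf.

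The vascular endothelium lines the blood vessels. In zebrafish it arises from lateral mesoderm, where the transcription factors Npas4l, Etv2, Tal1 and Lmo2 set up precursors that can give both vessels and blood. Vessel cells then turn on the receptors for VEGF and angiopoietin (Kdrl, Flt1, Tie1, Tek), the junction proteins VE-cadherin (cdh5) and claudin 5 (cldn5b), and, in arteries, Notch signalling through Dll4 and Hey2. In the head the anterior lateral mesoderm also gives the first macrophages, whose progenitors need Spi1b (Pu.1), and the endocardium, the endothelial lining of the heart.

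Members were most frequent in the 14 hpf library and in both 18 hpf libraries. In the 14 hpf library, 22 of 354 cells met the rule, a share of 6.21% with an exact 95% interval from 3.94 to 9.26%. The 18 hpf timeline library had 14 of 248 (5.65%, interval 3.12 to 9.29%), and the second library of that age had 68 of 970 (7.01%, interval 5.48 to 8.80%). Fewer were found later, 7 of 516 at 20 hpf (1.36%, interval 0.547 to 2.78%) and 4 of 388 at 24 hpf (1.03%, interval 0.282 to 2.62%). The 14 and both 18 hpf intervals lay above those of 20 and 24 hpf. None of the 238 cells at 12 hpf and none of the 131 at 30 hpf was a member, which allows a share of up to 1.26% and 2.29% when 3 cells are set against the total (the exact upper limits are 1.54% and 2.78%). All intervals cover counting error only, and a share of sorted cells depends on where each embryo was illuminated and on the gate. Members were shallower than the other cells of their library, with a median of 8033.5 to 16454 UMIs against 13020.5 to 23763.5 in the 18 to 24 hpf libraries and 9621.5 against 10962.5 at 14 hpf. Thinning every cell to 5000 UMIs gave shares of 5.40, 4.86, 6.49, 1.36 and 1.03% in the same order of libraries. Scrublet called 0 to 35.9% of the cells of a library doublets and no member, and the 1 barcode that occurred in more than 1 library belonged to no member. Libraries held 1711154 to 23870809 UMIs after the cell filter.

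**Figure D1:**
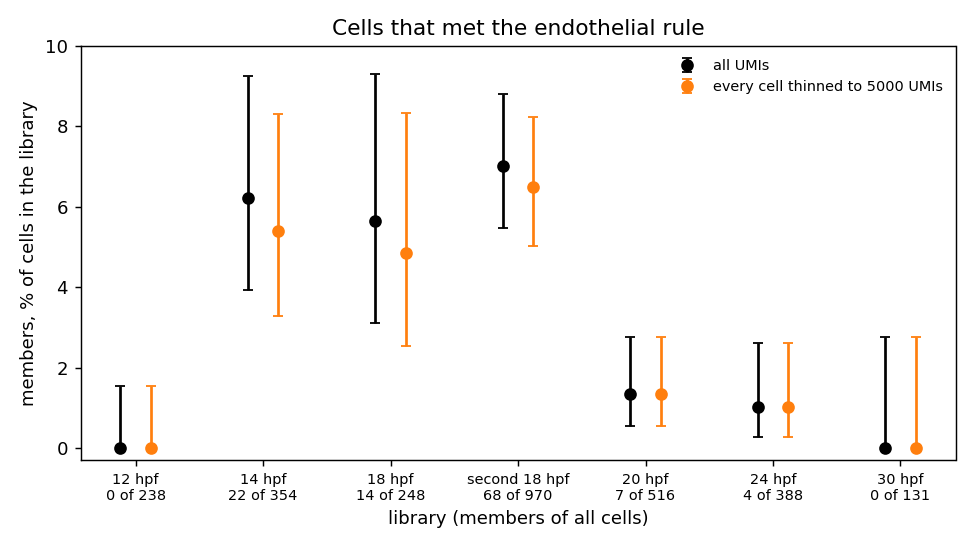
Share of cells that met the endothelial rule (y axis, % of cells in the library) in each of the 7 libraries (x axis, with members of all cells). Points are shares, bars exact 95% binomial intervals, black for all UMIs and orange after thinning to 5000 UMIs; the 14 hpf and both 18 hpf libraries sit between 4.86 and 7.01%, the 20 and 24 hpf libraries at 1.36 and 1.03%, and 12 and 30 hpf at 0.

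The 9 genes that chose the members are given as a description, with no test. Their number per member had a median of 6 at 14 hpf, 8 at 18 hpf, 9 in the second 18 hpf library, 8 at 20 hpf and 7.5 at 24 hpf, and 8 or 9 of them were seen in 5 of 22, 11 of 14, 58 of 68, 6 of 7 and 2 of 4 members. At the edge of the rule at 14 hpf, 3 members held exactly 4 rule genes and 10 cells just outside held 3, against 1 and 2 cells at 18 hpf and 6 and 15 in the second 18 hpf library. No cell without an excluded gene held more than 1 rule gene at 12 hpf or more than 2 at 30 hpf. Another 2 cells at 14 hpf, 2 at 18 hpf, 1 at 20 hpf and 6 in the second 18 hpf library met the positive side of the rule but held an excluded gene.

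The levels of the rule genes are given by library as a description. A level here is in CPM, the UMIs of a gene scaled to a total of 1000000 UMIs, taken from the UMIs summed over the members, or over the other cells, of 1 library, with an exact Poisson 95% interval. Tal1, a transcription factor shared by blood and vessel precursors, was seen in 22 of 22 members at 14 hpf at 1011.1 CPM (879 to 1157) and in 11 of 14 at 18 hpf at 327 CPM (235 to 444). Its level in the second 18 hpf library was 285 CPM (256 to 318). The VEGF receptor kdrl was seen in 9 of 22 members at 14 hpf, at 67.1 CPM (36.7 to 113), and in 14 of 14 at 18 hpf, at 216 CPM (142 to 314). In the second 18 hpf library kdrl stood at 306 CPM (275 to 339). Among other cells it lay between 0.415 and 2.15 CPM in the 5 libraries with members, and 0.393 to 2.41% of them held a UMI. The order was the same for the orphan receptor tie1 (52.7, 200 and 402 CPM), for the C-type lectin clec14a (115, 375 and 940 CPM) and for cdh5 (254, 455 and 906 CPM) in the 14, 18 and second 18 hpf members. Neither order held for etv2 (623, 415 and 867 CPM), egfl7 (503, 335 and 732 CPM) or sox7 (671, 559 and 826 CPM). Their 14 hpf level lay between those of the 18 hpf libraries. The rule gene she stood at 62.3, 79.9 and 185 CPM. These genes chose the members, so no comparison is drawn from their intervals.

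Markers of endothelium that the rule did not use bear on the name of these cells. Of 18 such genes (fli1a, fli1b, erg, lmo2, sox18, esama, pecam1, cldn5b, flt4, flt1, kdr, tek, ecscr, adgrl4, fgd5a, plvapb, aplnra and aplnrb), 16 could be read in the timeline table and 18 in the second. The median number per member was 5 at 14 hpf, where members ranged from 1 to 9. It was 8 in the 18 hpf timeline library, range 5 to 12, and 12 in the second 18 hpf library, range 3 to 15. Members of 20 hpf had a median of 10, range 8 to 12, and those of 24 hpf a median of 10, range 6 to 11. Other cells held a median of 0 at 14 hpf and 1 in each of the other 4 libraries, from deeper cells. At 14 hpf the ranges overlapped widely, since 132 of the 332 other cells held at least as many as the lowest member, against 2 of 234 at 18 hpf, 102 of 902 in the second 18 hpf library, and 0 of 509 and 0 of 384 at 20 and 24 hpf. The claudin cldn5b, which seals endothelial junctions, was seen in 3 of 22 members at 14 hpf and the angiopoietin receptor tek in 3 of 22, while pecam1 and plvapb were at 0. At 18 hpf cldn5b was seen in 12 of 14 and tek in 10 of 14. From 18 hpf on the markers fitted the name of endothelial cells in most members. Members with few rule genes in the 18 hpf libraries also held myeloid genes, as given below. The 14 hpf members held transcription factors of the lineage, while few of them held cldn5b or tek, and they are called only 14 hpf members below.

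**Figure D2:**
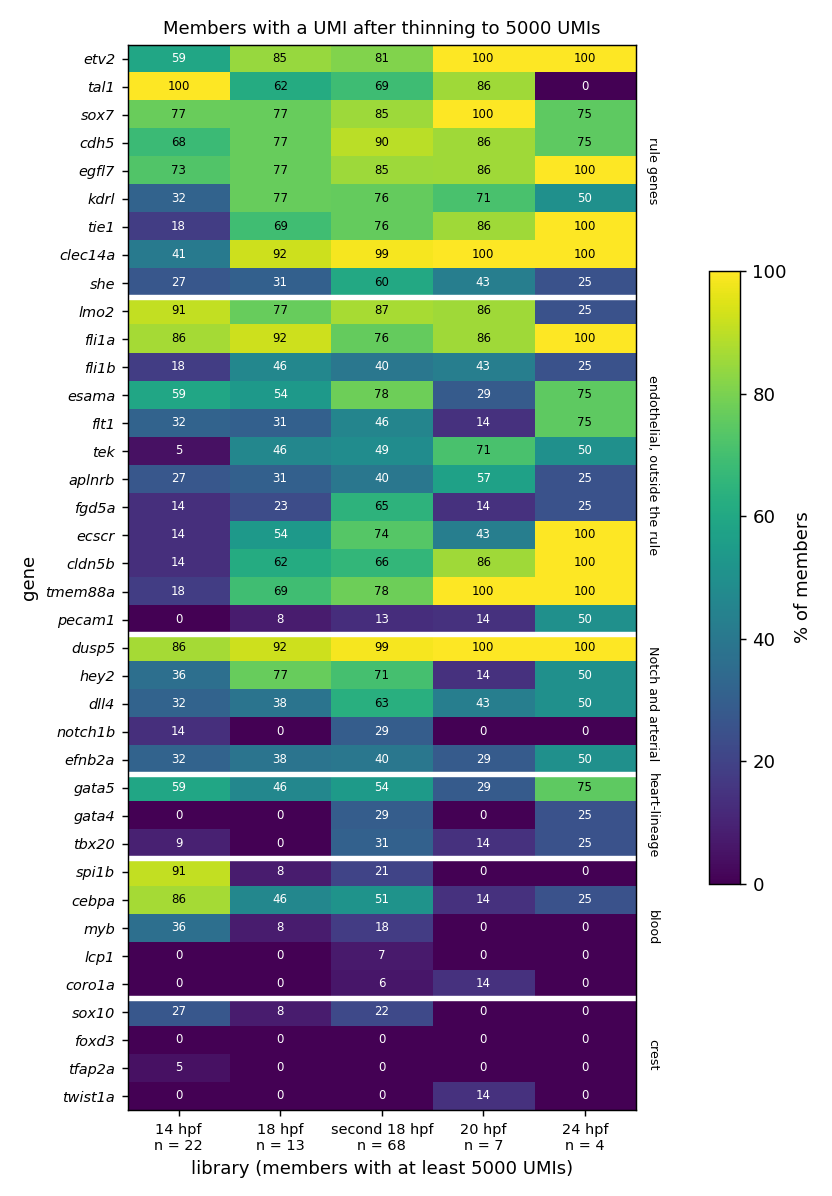
Percentage of members with at least 1 UMI of a gene (colour and printed value) after thinning each member to 5000 UMIs, for 38 genes (rows, in 6 groups) in 5 libraries (columns, with the number of members deep enough to thin). At 14 hpf tal1, lmo2 and fli1a reach 86.4% or more and kdrl, tie1, tek and cldn5b 4.55 to 31.8%, against 46.2 to 76.9% of these 4 at 18 hpf; spi1b is at 90.9% at 14 hpf, 7.69% at 18 hpf and 0 at 20 and 24 hpf. Tal1, kdrl and tie1 are genes of the rule and are described only.

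The 14 hpf members also carried transcription factors of the myeloid lineage. Spi1b was seen in 22 of 22 of them, at 1 to 38 UMIs a cell and 891 CPM (768 to 1029 CPM), and cebpa, a factor that drives granulocyte and macrophage genes, in 21 of 22 at 834 CPM. Of the 166 cells of the same library with neither a rule gene nor an excluded gene, 3 held spi1b. Tal1 is a rule gene, so none of these 166 cells could hold it. The stem cell factor myb was seen in 11 of 22. The effector genes of myeloid cells were nearly absent, with lcp1, coro1a, csf1ra, mpx, laptm5 and ptprc at 0 UMIs and lyz at 1 UMI in 208683 UMIs of the 22 members. Spi1b also reached across the edge of the rule. It was seen in 17 of 30 cells with 1 rule gene, 9 of 11 with 2 and 10 of 10 with 3, and in 5 of 5 members with 8 or 9. Tal1 was seen in 17, 10 and 10 of the cells with 1, 2 and 3 rule genes. These counts of spi1b therefore cannot be read apart from the use of tal1 in the rule.

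At 18 hpf most members had no spi1b. It was seen in 3 of 14 members at 18 hpf (152 CPM) and in 19 of 68 in the second 18 hpf library (231 CPM), and in none of the 7 and 4 members at 20 and 24 hpf, where 3 UMIs would have read as 32.4 and 88.5 CPM. Other cells of those libraries held spi1b at 151, 383, 96.9 and 23.9 CPM. In the 18 hpf timeline library the 1 member with 4 rule genes held spi1b and cebpa but no lcp1. The share with spi1b was lower in members with more rule genes in the second 18 hpf library, from 6 of 6 members with 4 rule genes and 4 of 4 with 5 to 7 to 9 of 58 with 8 or 9. Lcp1 was seen in 5 of 6, 2 of 4 and 5 of 58 of these, and in 14 of 15 cells just outside the rule with 3 rule genes. The 19 members with spi1b there held a median of 7 rule genes against 9 in the other 49, kdrl at 136 against 389 CPM, cdh5 at 412 against 1147 CPM and cldn5b at 175 against 600.0 CPM, and lcp1 in 7 of 19 against 5 of 49. Tal1 was at 365 against 247 CPM, seen in 19 of 19 and 44 of 49. The split was made on spi1b itself, so the values are a description with no test.

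In the 20 hpf library, 4 members stood apart by their transcription factors, which was noticed after the values were seen. Etv2, the ETS factor that starts the endothelial programme, reached 3728 CPM (3345 to 4143) in its 7 members, against 623, 415 and 867 CPM in the 14, 18 and second 18 hpf members and 561 CPM at 24 hpf. In the 7 cells in order of etv2 it was counted at 89, 76, 75, 71, 20, 8 and 6 UMIs. The first 4 of these cells held 77, 71, 37 and 54 UMIs of tal1 and 79, 67, 63 and 68 of lmo2, a cofactor that binds Tal1, and 3, 3, 1 and 3 of npas4l, the earliest known gene of the lineage in zebrafish. The other 3 held 6, 1 and 3 UMIs of tal1, 0, 2 and 3 of lmo2 and none of npas4l. All 7 held cdh5, clec14a and cldn5b, and none held spi1b. Npas4l was seen in 1 of 22 members at 14 hpf, 0 of 14 at 18 hpf and 4 of 68 in the second 18 hpf library. Etv2 and tal1 are genes of the rule and etv2 set the order of the cells, so their values are a description. The first 4 cells held 11797 to 20360 UMIs in all and the other 3 held 5780 to 12799. With a single 20 hpf library this group of 4 cells has no replicate, and no test was made of it.

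**Figure D3:**
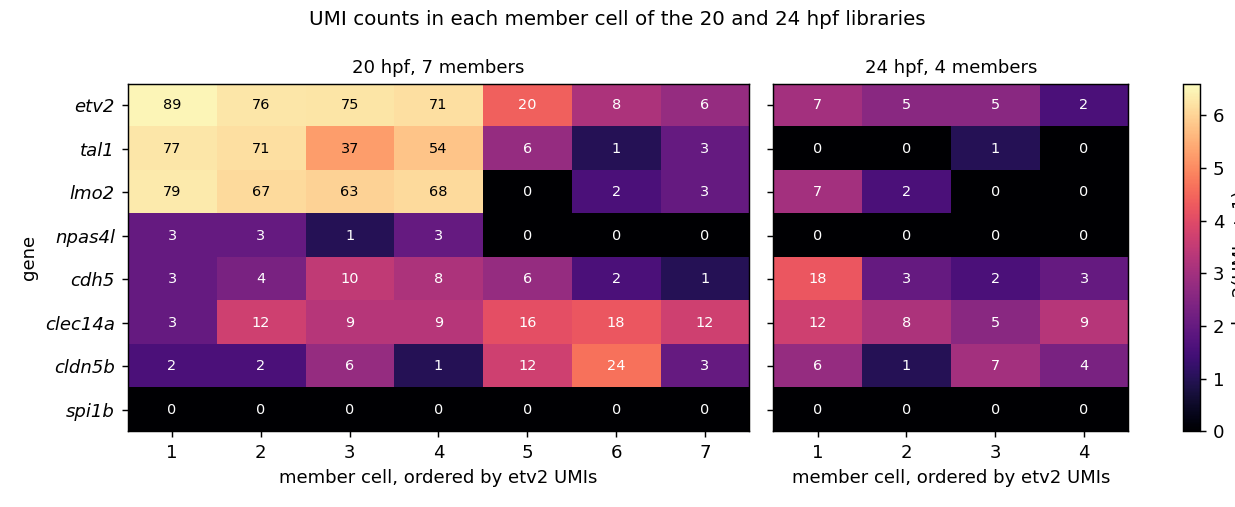
UMI counts of 8 genes (rows) in each of the 7 members at 20 hpf and the 4 members at 24 hpf (columns, ordered by etv2 count); colour is log2(UMIs + 1) and the number is the count. The first 4 cells at 20 hpf hold 71 to 89 UMIs of etv2 and 63 to 79 of lmo2, the rest of the members 2 to 20 and 0 to 7.

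For comparison with the other cells, UMIs were summed over members and over all other cells of each library with at least 10 members, which left the 14, 18 and second 18 hpf libraries. The sums were compared by edgeR's quasi-likelihood test with the library as a block and Benjamini-Hochberg adjustment at 0.05 (2 residual degrees of freedom). The 12 genes of the rule were left out. A gene that is co-expressed with them is favoured by how the cells were chosen, and the other cells are a mixture of NC, epithelium, muscle, neural and blood cells, so a difference is one from that mixture. Of 9467 genes tested, 1795 passed (19.0%), with 824 higher in members (8.70%) and 971 lower (10.3%). The median log2 fold change over all genes tested was -0.13. The count depended on the libraries used. It was 180 without the second 18 hpf library, which held 68 of the 104 members, 967 without the 18 hpf timeline library and 1657 without the 14 hpf library. Each of these fits also left fewer residual degrees of freedom.

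Of the transcription factors of the vessel lineage, 14 of 20 tested were higher in members, 3 were lower and 3 did not pass (median log2 fold change 1.63). Lmo2 stood at 1423, 391 and 439 CPM in the 14, 18 and second 18 hpf members against 70.6, 22.7 and 37.4 CPM in other cells, a log2 fold change of 3.83 (SE 0.21, adjusted p = 2.25e-38). The ETS factor fli1a stood at 355, 351 and 404 CPM against 35.3, 38.6 and 42.8 CPM (log2 fold change 3.10, SE 0.24, adjusted p = 1.16e-24). It differed little among the 3 libraries, unlike lmo2, whose 14 hpf level was above both others. Klf6a was higher by 0.87 (SE 0.20, adjusted p = 0.000247), with levels from 367 to 639 CPM in members and from 120 to 445 CPM in other cells, so that its ranges overlapped. It lost the call in 7 of 16 alternatives. The 3 that were lower were nr2f2, nr2f1b and foxc1b. Nr2f2, which in mice gives veins their identity, was seen in 1, 1 and 9 members, and its log2 fold change was -2.55.

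Of the receptors, 12 of 17 were higher, 2 lower and 3 did not pass (median 2.57). Calcrla, which with its partner ramp2 forms the receptor for adrenomedullin, stood at 43.1, 79.9 and 347 CPM in members and at 2.15, 0 and 0.749 CPM in other cells (log2 fold change 7.66, SE 0.52, adjusted p = 1.80e-29). Ramp2 stood at 57.5, 264 and 419 CPM against 40.7, 27.9 and 34.2 CPM (2.57, SE 0.30, adjusted p = 5.73e-13), close to other cells at 14 hpf and apart from them at 18 hpf, and was not called without the second 18 hpf library. Tek was seen in 3 of 22, 10 of 14 and 60 of 68 members, at 19.2, 192 and 140 CPM, against 0.808 to 2.64 CPM in other cells (5.88, SE 0.45, adjusted p = 4.21e-25). The VEGF receptors flt1, kdr and flt4 had log2 fold changes of 6.92, 7.13 and 6.68 and all passed. The exceptions were nrp2a, a semaphorin coreceptor (-5.33), and the pericyte gene cd248a, which had no UMI in a member.

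Of the junction and surface genes, 15 of 26 were higher, 2 lower and 9 did not pass (median 2.84). Cldn5b stood at 19.2, 319 and 461 CPM in members and at 0.269, 1.95 and 1.85 CPM in other cells (log2 fold change 7.59, SE 0.40, adjusted p = 2.64e-39). Rasip1, a Ras-interacting protein needed for vessel lumens in mice, stood at 9.58, 79.9 and 205 CPM against 0 to 0.793 CPM (7.88, SE 0.56, adjusted p = 3.25e-27). Tmem88a, an inhibitor of Wnt signalling, stood at 38.3, 495 and 661 CPM against 2.42, 11.04 and 13.1 CPM (5.22, SE 0.30, adjusted p = 1.23e-35). The members' levels of these 3 genes were lowest at 14 hpf and the other cells' levels were below all of them. The tetraspanin cd81a did not pass (0.19, SE 0.22). The 2 that were lower were jam2b and amotl2b.

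**Figure D4:**
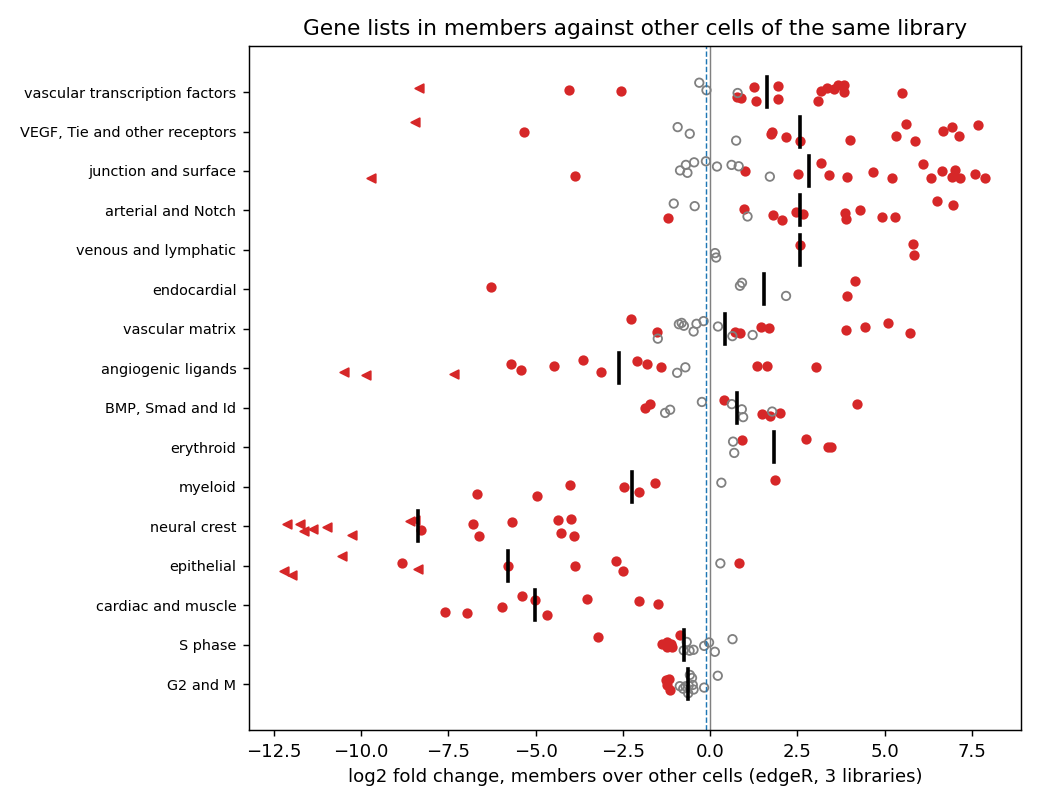
Log2 fold change of members over other cells (x axis, edgeR, 14, 18 and second 18 hpf libraries) for the tested genes of 16 lists (rows). Red points passed at an adjusted p of 0.05, open points did not, triangles are genes without a UMI in members (their position depends on the prior count), black bars are list medians and the dashed line is the median of all genes (-0.13); endothelial lists lie to the right, with medians of 1.63 to 2.84, and the NC list to the left at -8.37. The rule keeps out members with dlx2a, epcam or myl7.

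Arterial and Notch genes were mostly higher too (12 of 16, 1 lower, 3 not passed, median 2.56). Dusp5, a phosphatase that acts on ERK and is a VEGF target, was the most abundant of them, seen in 20 of 22, 14 of 14 and 68 of 68 members at 724, 1366 and 1468 CPM against 39.9, 90.0 and 88.5 CPM in other cells (log2 fold change 3.89, SE 0.18, adjusted p = 2.35e-46). Hey2, a transcriptional repressor that acts in artery formation, stood at 177, 351 and 389 CPM against 15.1, 18.2 and 10.4 CPM (4.30, SE 0.29, adjusted p = 8.59e-30). The Notch ligand dll4 was seen in 9 of 22, 8 of 14 and 56 of 68 members, and in 1.205, 0.427 and 0.998% of other cells. Notch1b was seen in 4 of 22, 4 of 14 and 54 of 68. The repressor her6 was lower (-1.21, SE 0.18, adjusted p = 1.72e-08), a call lost when the other cells were restricted to those without an excluded gene.

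Genes of veins and lymphatics were sparse, and 3 of 5 tested were higher (dab2, mrc1a and stab2). Dab2, an adaptor for endocytosis that acts in vein growth, was seen in 0 of 22, 2 of 14 and 36 of 68 members (log2 fold change 5.80, SE 0.65), and the mannose receptor mrc1a in 4, 0 and 20. Ephb4b, the receptor on venous cells for the arterial ligand efnb2a, did not pass (0.14, SE 0.48). In the second 18 hpf library it was seen in 27.9% of members and 28.9% of other cells, so it did not set members apart there. Arterial and venous genes were detected in the same cell in many members of the second 18 hpf library. Of the 68 members of the second 18 hpf library, 35 held both hey2 and dab2, 20 only hey2 and 1 only dab2, where detection of each without regard to the other would put both in 29.1. For dll4 and ephb4b the counts were 18 with both, 38 with dll4 alone and 1 with ephb4b alone, beside 15.6. At 14 hpf 0 of 22 members held both genes of either pair. There 1.23 would be put for dll4 and ephb4b, and dab2 was seen in no member. Other pairs were found together at 14 hpf: hey2 and mrc1a in 3 of 22 members beside 2, and efnb2a and mrc1a in 2 beside 1.45. Efnb2a and ephb4a were found together in 0, beside 0.364, and stab2 was seen in no member. At 20 hpf 0 of 7 held both dll4 and ephb4b, beside 0.857, and 1 held both hey2 and dab2, beside 0.571. In the 18 hpf timeline library dll4 and ephb4b were found together in 1 of 14, beside 0.571, and hey2 and dab2 in 2, beside 1.71. At 24 hpf the former were found together in 1 of 4 and the latter in 2, each beside 1.5. The part of depth, of free RNA and of differences among members, such as those with and without spi1b, in these counts was not tested.

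Among genes of the heart, gata5 and gata4 were higher in members and the muscle genes tested were lower. Gata5, a factor of heart and endocardium, was seen in 17 of 22, 10 of 14 and 52 of 68 members at 254, 144 and 239 CPM against 16.4, 8.44 and 14.1 CPM (log2 fold change 3.91, SE 0.30, adjusted p = 1.98e-24). Gata4 was higher as well (4.14, SE 0.58), but not in every library. It was seen in 1 of 22, 0 of 14 and 37 of 68 members, with 1, 0 and 59 UMIs. Of the 6 endocardial genes tested 2 were higher, 1 was lower (hapln1a) and has2, nfatc1 and gata6 did not pass. Nfatc1, which marks endocardium, was seen in 0 of 22, 1 of 14 and 10 of 68 members. All 9 cardiac muscle genes tested were lower, 7 of them in every library, and cmlc1 was at 0, 15.97 and 23.0 CPM in members. At 14 hpf ttn.2 stood higher in members, at 101 against 47.9 CPM, and so did tnnt2a, at 38.3 against 30.2 CPM. Tnnt2a was seen in 29 of 68 members of the second 18 hpf library and in 25.8% of other cells, at 142 against 432 CPM. The rule keeps out members with myl7, and against only those other cells that held no excluded gene the log2 fold change of cmlc1 was 0.76 and did not pass.

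Of the angiogenic ligands 11 of 16 were lower, 3 higher and 2 did not pass (median -2.62, or -1.95 with genes at 0 set to their bound). Vegfaa, the main VEGF of the embryo, was seen in 1 of 104 members of these libraries. The chemokine gene cxcl12a was seen in none, against 16.7, 66.9 and 34.2 CPM in other cells. Those that were higher were tgfb1a (86.3, 71.9 and 52.0 CPM against 7.00, 4.55 and 8.77 CPM), slit3 and sema3fb. Cxcl12b was lower (-1.40, SE 0.32), but against only those other cells that held no excluded gene its log2 fold change was 0.57 and did not pass. Among Wnt ligands, wnt11r alone was common. It was seen in 18 of 22, 9 of 14, 55 of 68, 4 of 7 and 3 of 4 members at 201, 216, 439, 270 and 590 CPM against 24.5, 31.5, 22.2, 15.6 and 29.7 CPM in other cells (log2 fold change 3.33, SE 0.28, adjusted p = 4.12e-22), higher in members of every library. No other Wnt ligand measured was seen in more than 4 members of a library. The Wnt receptor fzd6 was also higher and 5 of the 15 Wnt genes tested were lower, among them the feedback gene axin2 and the effector lef1.

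Of the BMP, Smad and Id genes 5 of 14 were higher, 2 lower and 7 did not pass. Id1, a BMP target, was seen in 22 of 22, 14 of 14 and 68 of 68 members at 4490, 4121 and 3851 CPM against 3002, 3301 and 2294 CPM (log2 fold change 0.39, SE 0.09, adjusted p = 0.000582), a difference that lost its call in 9 of 16 alternatives. Id2b was higher by 4.21 (SE 0.38), at 47.9, 128 and 202 CPM. Id3 was lower (-1.71, SE 0.22, adjusted p = 7.20e-11). Matrix genes were divided: 8 of 20 were higher, among them fn1a (518, 303 and 744 CPM against 126, 109 and 197 CPM) and itga9, which binds fibronectin and other matrix proteins, while sparc and lama5 were lower and 10 did not pass. The basement membrane collagens col4a1 and col4a2 were seen in 1 and 0 members at 14 hpf, 0 and 1 at 18 hpf, and 25 and 32 of the 68 in the second 18 hpf library.

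Of the 10 largest differences by the naming rule, rasip1, calcrla and cldn5b are given above and the other 7 genes were on no list. Gpr182, an atypical chemokine receptor of endothelium, stood at 43.1, 192 and 306 CPM against 0, 0.325 and 1.498 CPM (log2 fold change 7.84, SE 0.45, adjusted p = 3.87e-36). The scavenger receptor scarf1 stood at 62.3, 87.9 and 165 CPM (7.26, SE 0.48). Exoc3l2a, slc18a2, shank3b, tnfaip2b and si:ch73-334d15.1 had log2 fold changes of 7.36 to 8.04 on 16 to 98 UMIs in members. The smallest values were those of genes without a UMI in any of the 104 members. Low values of NC and epithelial genes are favoured here, since the rule keeps out members with dlx2a or epcam. Against a floor of 3 UMIs over all members, the keratin cyt1 was at least 58.1-fold lower, dlx3b at least 54.8-fold, postnb at least 51.5-fold and the claudin cldni at least 49.3-fold. The calls of these 4 were lost under DESeq2's Wald test, and those of cyt1 and dlx3b also without the second 18 hpf library.

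Markers of other cell types were read in the same test. The rule keeps out members with dlx2a or epcam, so NC and epithelial genes were favoured to be lower in members. All 16 NC genes tested were lower (median -8.37, or -4.76 with 8 genes at their bound). Foxd3 and crestin had no UMI in any member, and twist1a had 4 UMIs in the 104 members. Sox10, the gene whose promoter drove the sorted reporter, was seen in 12 of 22 members at 14 hpf, 2 of 14 at 18 hpf and 31 of 68 in the second 18 hpf library, at 125, 15.97 and 112 CPM against 1332, 647 and 1685 CPM in other cells, and in 0 of 7 and 0 of 4 at 20 and 24 hpf. In other cells with at most 1 further NC gene, sox10 was at 360, 144 and 2022 CPM in the 14, 18 and second 18 hpf libraries. Epithelial genes were lower in 9 of 11, whereas krt18a.1 was higher (0.82, SE 0.17) and was seen in 13 of 22, 13 of 14 and 61 of 68 members. Its CPM was below that of other cells in the second 18 hpf library. Of 8 myeloid genes 6 were lower, spi1b did not pass (0.32, SE 0.23) and cebpa was higher (1.85, SE 0.21). Without the members that held spi1b, which leaves no 14 hpf member, and with the 20 hpf library added, the value of cebpa was -0.11 and did not pass.

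Of the erythroid genes, 4 of 6 tested were higher in members and 2 did not pass. Hbbe1.2 was seen in 15 of 22, 11 of 14 and 37 of 68 members at 479, 1158 and 266 CPM, and in 9.64, 17.9 and 10.98% of the deeper other cells at 32.3, 111 and 25.6 CPM (log2 fold change 3.38, SE 0.21, adjusted p = 3.63e-32). Hbae3 was higher by 3.47 (SE 0.24). Hbae1.3 was higher by 0.91, but its value was -0.26 against other cells without an excluded gene and -0.43 with libraries of at least 4 members. Without members that held spi1b, which drops the 14 hpf library and adds that of 20 hpf, it was -2.44. Gata1a, the factor that defines red cells, was seen in 0 of 22, 0 of 14 and 6 of 68 members. At 24 hpf the order was reversed for both, with hbbe1.2 at 295 against 523 CPM in other cells. The part of blood cells or of their free RNA in this result was not tested. Removing the 1 member at 18 hpf and the 12 in the second 18 hpf library that held 2 or more of 8 blood genes left 1678 genes called, 1542 of them shared with the full set. The 8 were gata1a, klf17, alas2, spi1b, lcp1, coro1a, laptm5 and mpx, with no globin gene among them. No member at 14 hpf was removed, so these counts cannot decide the part of blood cells in the globin result.

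Cell cycle and stress genes were read in the same test, in which 10.3% of all genes tested were lower and 8.70% higher. Of 15 S phase genes 7 were lower and none higher (median -0.76), among them pcna, the sliding clamp of DNA replication, at 125, 527 and 513 CPM against 836, 705 and 736 CPM (log2 fold change -1.24, SE 0.19, adjusted p = 1.36e-08). Of 15 G2 and M genes 4 were lower. The proliferation marker mki67 was seen in 9 of 22, 0 of 14, 38 of 68, 4 of 7 and 1 of 4 members. It was seen in 63.3, 56.0, 70.4, 63.9 and 61.5% of the deeper other cells in the same order. At 20 hpf, which the test left out, the listed G2 and M genes other than ccna2, bub1 and bub1bb had a higher CPM in members. These sums cover only 7 cells, and not all of them held each gene: ccnb1 and top2a were seen in 3, cdk1 and kpna2 in 4 and plk1 in 6. Of 18 stress genes 5 were lower and 2 higher (ier2b and socs3a), and atf3 had the most negative value (-2.53, SE 0.24).

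The dependence on age was tested on the same 3 libraries, which set 14 hpf against both 18 hpf libraries and left 1 residual degree of freedom in either test below. By edgeR's quasi-likelihood test 0 of 2846 genes had an age slope in members at an adjusted p of 0.05 (0%), with 289 at an unadjusted p of 0.05, while DESeq2's Wald test called 10. Whether the age slope differed between members and other cells was tested as an interaction with the library as a block. There 36 of 11159 genes passed (0.323%), 23 with a more positive slope in members (0.206%) and 13 with a more negative one (0.116%).

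Of the genes of the endothelial lists, calcrla, ramp2, ldb2a and cxcr4a had the more positive slope in members and fli1b, klf6a and cdh11 the more negative. Itga9 of the matrix list also had a more positive slope. Cxcr4a was seen in 0 of 22, 6 of 14 and 13 of 68 members. In the second 18 hpf library that was 19.1% of members, against 19.6% of other cells. Calcrla differed by 1.17 log2 per hour (SE 0.26, adjusted p = 0.00491) and ramp2 by 0.74 (SE 0.16, adjusted p = 0.00160), with the levels given above for both parts of the adrenomedullin receptor. Ldb2a, a cofactor that bridges LIM-domain factors, stood at 19.2, 168 and 182 CPM in members against 15.9, 9.42 and 10.8 CPM (0.96, SE 0.21, adjusted p = 0.00399). Icn, a calcium-binding protein, was seen in 1 of 22 members at 14 hpf and in 9 of 14 and 50 of 68 at 18 hpf, at 4.79, 1286 and 782 CPM (1.67, SE 0.22, adjusted p = 2.57e-10). Id3 stood at 33.5, 407 and 391 CPM against 886, 984 and 466 CPM in other cells (1.00, SE 0.14, adjusted p = 1.93e-09). Pcna (0.56) and itga9 (0.72) also passed, but with the 20 and 24 hpf libraries added the value of pcna was -0.040 and that of cxcr4a -0.084, and neither passed. The 5 steepest were cxcr4a, flrt3 and the Notch targets her12, her15.1 and her2, at 2.79 to 3.03 log2 per hour. Each was without a UMI in the 14 hpf members, where 3 UMIs would read as 14.4 CPM, so these values depend on the prior count. Icn, id3, itga9, pcna and spi1b were chosen after their values were seen, as were other genes outside the naming rule.

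**Figure D5:**
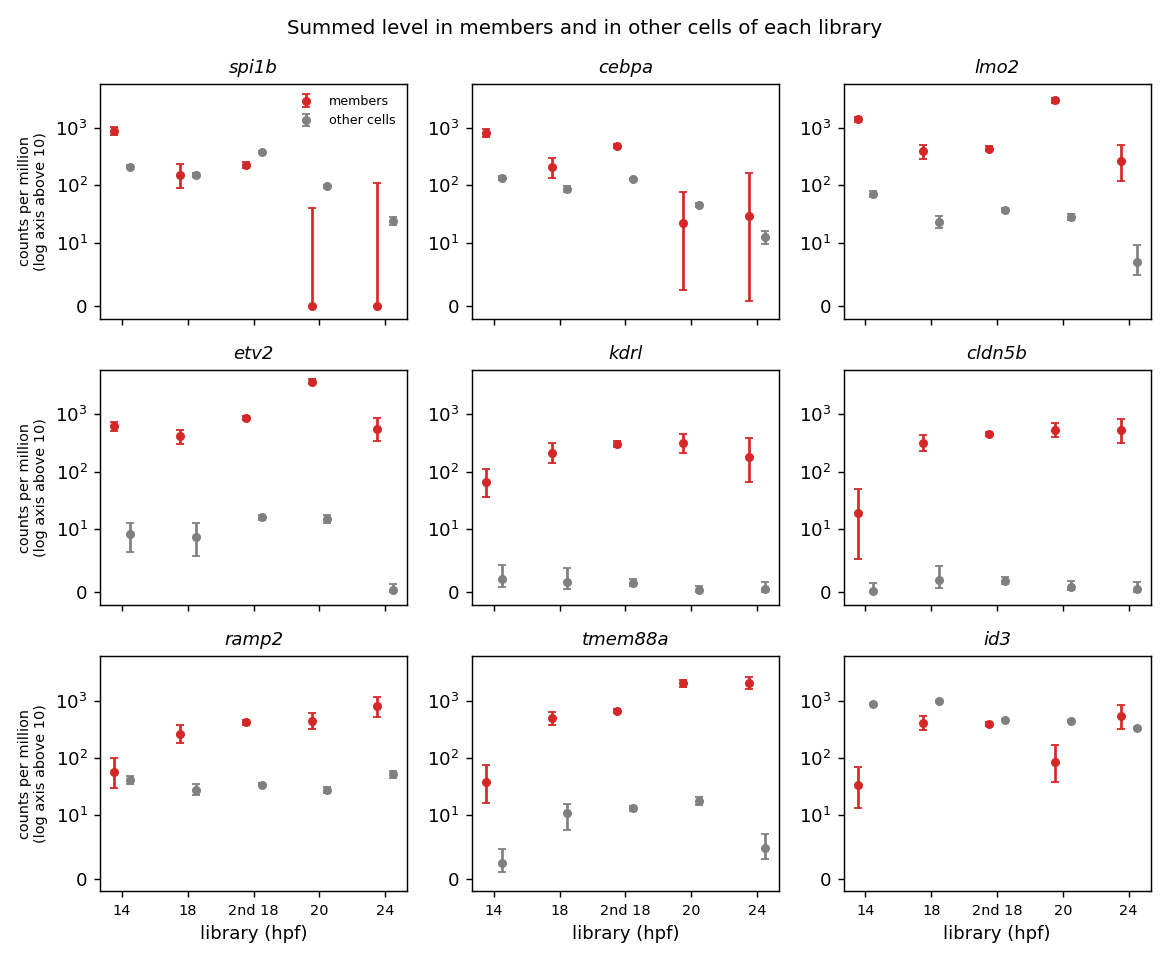
Level of 9 genes in members (red) and in the other cells (grey) of 5 libraries (x axis; 2nd 18 is the second 18 hpf library), in CPM on an axis that is logarithmic above 10 and linear below; bars are exact Poisson 95% intervals. Spi1b, cebpa and lmo2 are higher in the 14 hpf members than in those of 18 hpf, where cldn5b, ramp2, tmem88a and id3 are higher than at 14 hpf. Kdrl is a gene of the rule, so no comparison is drawn from its intervals.

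Spi1b had a more negative slope in members (-0.63 log2 per hour, SE 0.11). It was chosen after its values were seen, and all 22 members at 14 hpf held the rule gene tal1. The slope is therefore a description, since spi1b cannot be read apart from the use of tal1 in the rule. The level of spi1b was 4.18-fold that of other cells at 14 hpf, 1.00-fold at 18 hpf and 0.602-fold in the second 18 hpf library. Part of the difference lay in other cells, whose level in the second 18 hpf library was the highest of the 3. Fli1b (-1.02), klf6a (-0.41) and the cadherin cdh11 (-1.19) were the genes of the endothelial lists with a more negative slope. For fli1b the other cells stood at 0.539, 10.7 and 16.5 CPM and members at 95.8, 176 and 126 CPM. Ttn.2 (-1.28), cfl1l (-1.27) and alcama (-0.79) were the remaining genes among the 5 most negative. With the 20 hpf library added the count was 49, of which 17 were shared, and with 24 hpf added as well 84, of which 14 were shared. The call of calcrla held in both, that of ramp2 in the former and that of ldb2a in neither. Against other cells without an excluded gene, and with 3 rule genes in place of 4, calcrla was not called.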

How the data were processed

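Both deposited tables give raw UMI counts, made by the authors with Cell Ranger (version not given in the sources used here) on GRCz11. Whether reads were subsampled when the timeline libraries were joined is not stated. The barcode suffix gave each timeline cell its library. Cells under 500 genes or over 10% mitochondrial UMIs were dropped, 9 in all, from the second 18 hpf library. Doublets were called with Scrublet in scanpy 1.11.5 and kept. UMIs of the 16600 genes in both tables were summed per library and class and tested with edgeR 4.0.16 (quasi-likelihood, TMM, filterByExpr, Benjamini-Hochberg), with DESeq2 1.42.0 as an alternative. The SE was obtained from the log2 value and its F statistic. Levels use all UMIs of a table. Each test was checked on simulated counts. Named genes were the 10 largest and 5 smallest fold changes among calls of 1 direction in every library, the 3 most abundant genes of each list, and for slopes the 5 steepest each way with at least 20 UMIs in members plus passing genes of the 5 endothelial lists. Nothing states that libraries came from separate cultures or clutches, so p-values refer to these libraries only. With so few residual degrees of freedom they rest largely on a spread that edgeR shares across genes, not on that between libraries. The members and lists were chosen with earlier results of these data known. One gene that the naming rule takes is not reported here. Positions and sequences were not used here.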

Additional observations from a re-analysis of the deposited data

Results flagged for a closer look

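The difference between members and other cells itself differed between 14 hpf and 18 hpf, by the interaction test, for 19 named genes. Values are the age slope in members minus that in other cells, in log2 per hour. More positive in members were cxcr4a (3.03), flrt3 (2.85), her12 (2.85), her15.1 (2.81), her2 (2.79), icn (1.67), calcrla (1.17), id3 (1.00), ldb2a (0.96), ramp2 (0.74), itga9 (0.72) and pcna (0.56). More negative in members were ttn.2 (-1.28), cfl1l (-1.27), cdh11 (-1.19), fli1b (-1.02), alcama (-0.79), spi1b (-0.63) and klf6a (-0.41). Icn, id3, itga9, pcna and spi1b were chosen after their values were seen, so that they passed was known beforehand. The value of spi1b cannot be read apart from the use of tal1 in the rule. Cxcr4a, flrt3, her12, her15.1 and her2 had no UMI in the 14 hpf members, so their values depend on the prior count. Each of the 19 rests on 1 library of 14 hpf.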

How the results depend on the processing

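The shares of members stayed within their main intervals under every alternative run. The count of genes that differed between members and other cells was 866 by DESeq2's Wald test, 414 with no library block, 992 against other cells without an excluded gene, 180 in the timeline table alone, and 180 to 1657 with 1 library left out. Age slopes in members numbered 42 with DESeq2 size factors, 55 with no filter, 10 by the Wald test, 140 with at least 3 rule genes, 16 with at least 5 and 94 without members that held 2 or more blood genes, against 0. Slope differences numbered 86 with size factors, 23 by the Wald test, 118 without blood-gene members, 165 against other cells without an excluded gene, 84 with libraries of at least 4 members and 9 without members that held spi1b, against 36. The last 2 were added after seeing the data. The last leaves out 14 hpf, the only age before 18 hpf, by its construction, and takes in the 20 hpf library.

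Against other cells without an excluded gene, the log2 fold change was 0.57 for cxcl12b, -0.26 for hbae1.3 and 0.76 for cmlc1, and the slope difference of cfl1l was 0.21. With at least 3 rule genes lcp1 was at 0.48. With libraries of at least 4 members hbae1.3 was at -0.43, and the slope differences of cxcr4a and pcna were -0.084 and -0.040. Without members that held spi1b, in the 18, 20 and second 18 hpf libraries, the fold changes were -2.44 for hbae1.3, -0.11 for cebpa and -2.39 for myb. That of spi1b was -13.94, a value fixed in advance, since no member left could hold it. Slope differences were then 0.63 for cdh11, 0.12 for alcama, -1.22 for cxcr4a, -0.29 for flrt3, -0.57 for her12, -1.16 for her15.1, -1.63 for her2, -0.43 for ldb2a, 0.10 for klf6a, -0.20 for calcrla, -0.089 for ramp2, 0.81 for spi1b, -0.040 for icn, -0.97 for id3, -1.08 for itga9 and -0.94 for pcna. Apart from that construction the cause was not tested. Over all named genes and alternatives, 991 fold changes kept direction and call, 163 lost the call, 19 gained it and 9 turned. The 9 include the value of spi1b that was fixed in advance. Of slope differences 153 kept both, 36 lost the call and 19 turned.

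Slopes with 1 library left out or from the timeline alone could not be fitted. With 1 library before 18 hpf, age and library cannot be told apart. A 0 in the 20 or 24 hpf members allows up to 32.4 or 88.5 CPM, which is 3 UMIs.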
